A study of Mus musculus with 2 samples.

Results

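The Hox genes were examined as a set in a map of chromatin recovered with an anti-Bcl3 antibody from mouse embryonic stem cells. Chromatin immunoprecipitation followed by sequencing (ChIP-seq) enriches the DNA bound by a protein, and a peak is a stretch where that enrichment passes the threshold of a peak caller. The set comprised 38 named Hox genes in 4 clusters, looked up by symbol in the authors' deposited annotation of their peaks. Of these, 28 genes (73.7%) were listed for at least 1 peak, against 40.4% of 21900 protein-coding genes, and they shared 5 of the 1130 peaks. For this, 1 ChIP library and 1 library of input chromatin were made. Both came from CGR8, an embryonic stem cell line, grown on 0.1% gelatin with 15% serum replacement and leukemia inhibitory factor at 1000 U/ml, which keeps the cells undifferentiated. No other treatment or allele was named. There were no replicates, so no value below carries an error between libraries and no test compares samples. Read depth is unknown and the input was not examined by itself. The files hold peaks rather than expression, so the labelled cell type could not be checked against marker genes.

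Hox genes encode homeodomain transcription factors that assign positional identity along the head-to-tail axis. Within each cluster they lie in 1 row and are numbered by position, with the low-numbered genes at the 3′ end, used early and toward the head, and the high-numbered genes at the 5′ end, used late and toward the tail and limb tips. In undifferentiated embryonic stem cells the clusters are classic Polycomb targets and are largely silent, and retinoic acid opens them in order. Bcl3, a nuclear IκB protein, does not bind DNA by itself and is carried to κB motifs by p50 or p52, the NF-κB subunits without an activation domain.

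No peak was listed at a Hox start. For 4 of the flanking peaks the promoter of the nearest Hox gene looked up is shown, although genes outside the clusters had nearer starts. A κB-like pattern, GGGNNNNNCC on either strand, is in capitals, and overlapping matches run together. The sequences are from RefSeq (GRCm38.p6), each running from 250 bases before to 50 after the start, and 22 of the 38 genes had an entry. Hoxb13, the Hox gene nearest to the peak beside Igf2bp1, had none.
Hoxa13 (chr6:52260831-52261130, minus strand): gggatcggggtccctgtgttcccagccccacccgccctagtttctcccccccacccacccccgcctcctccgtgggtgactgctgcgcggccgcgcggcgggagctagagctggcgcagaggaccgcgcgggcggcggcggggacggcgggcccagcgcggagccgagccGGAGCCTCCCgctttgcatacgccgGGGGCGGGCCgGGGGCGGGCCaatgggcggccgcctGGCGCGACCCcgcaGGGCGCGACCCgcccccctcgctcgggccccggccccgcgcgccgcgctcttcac
Hoxa2 (chr6:52164782-52165081, minus strand): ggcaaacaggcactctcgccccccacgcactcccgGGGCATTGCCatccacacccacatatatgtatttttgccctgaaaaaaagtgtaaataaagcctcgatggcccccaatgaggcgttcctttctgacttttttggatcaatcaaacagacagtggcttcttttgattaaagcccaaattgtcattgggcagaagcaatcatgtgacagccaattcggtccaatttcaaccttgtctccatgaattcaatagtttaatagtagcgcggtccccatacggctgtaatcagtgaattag
Hoxd13 (chr2:74667975-74668274, plus strand): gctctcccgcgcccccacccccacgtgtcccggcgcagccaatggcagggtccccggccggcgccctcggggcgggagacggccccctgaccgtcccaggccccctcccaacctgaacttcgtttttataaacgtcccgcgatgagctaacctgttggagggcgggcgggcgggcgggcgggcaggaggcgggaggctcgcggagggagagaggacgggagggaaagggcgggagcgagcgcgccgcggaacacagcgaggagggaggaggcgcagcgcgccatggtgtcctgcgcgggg
Hoxb1 (chr11:96365508-96365807, plus strand): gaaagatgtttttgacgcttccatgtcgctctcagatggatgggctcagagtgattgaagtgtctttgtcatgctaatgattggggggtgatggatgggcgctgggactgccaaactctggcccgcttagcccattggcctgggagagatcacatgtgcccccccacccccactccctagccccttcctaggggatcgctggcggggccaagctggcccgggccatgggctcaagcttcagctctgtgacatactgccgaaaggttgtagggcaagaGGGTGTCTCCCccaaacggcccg

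The Hoxa13 window held 6 matches, the Hoxb1 window 2 that overlap, the Hoxa2 window 1 and the Hoxd13 window 0. Over the set, 13 of 22 Hox genes (59.1%) had a match, against 59.8% of 17492 protein-coding genes, so the pattern was about as frequent in Hox promoters as elsewhere. Base composition varied widely among them, with a GC content of 81.0% for Hoxa13 and 39.7% for Hoxd4. The median GC content was 56.9% over the 22 Hox genes and 56.3% over all protein-coding genes. A match is a string of letters and not a site. These windows carried no peak, and the peaks themselves are not shown as sequence because no mm9 genome was used here.

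All 5 peaks lay outside the clusters. The members listed for a peak spanned 98.4 kb in Hoxa, 173.3 kb in Hoxb and 80.0 kb in Hoxd, from the first to the last of them, and 0 peak midpoints fell inside any of these spans. Hoxa was flanked on both sides, Hoxb was flanked on both sides, Hoxd had a peak on its 5′ side only, and Hoxc had none listed. Neighbouring genes share peaks, so the 28 listed genes stand for 3 loci, not for 28 observations.

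**Figure D1:**
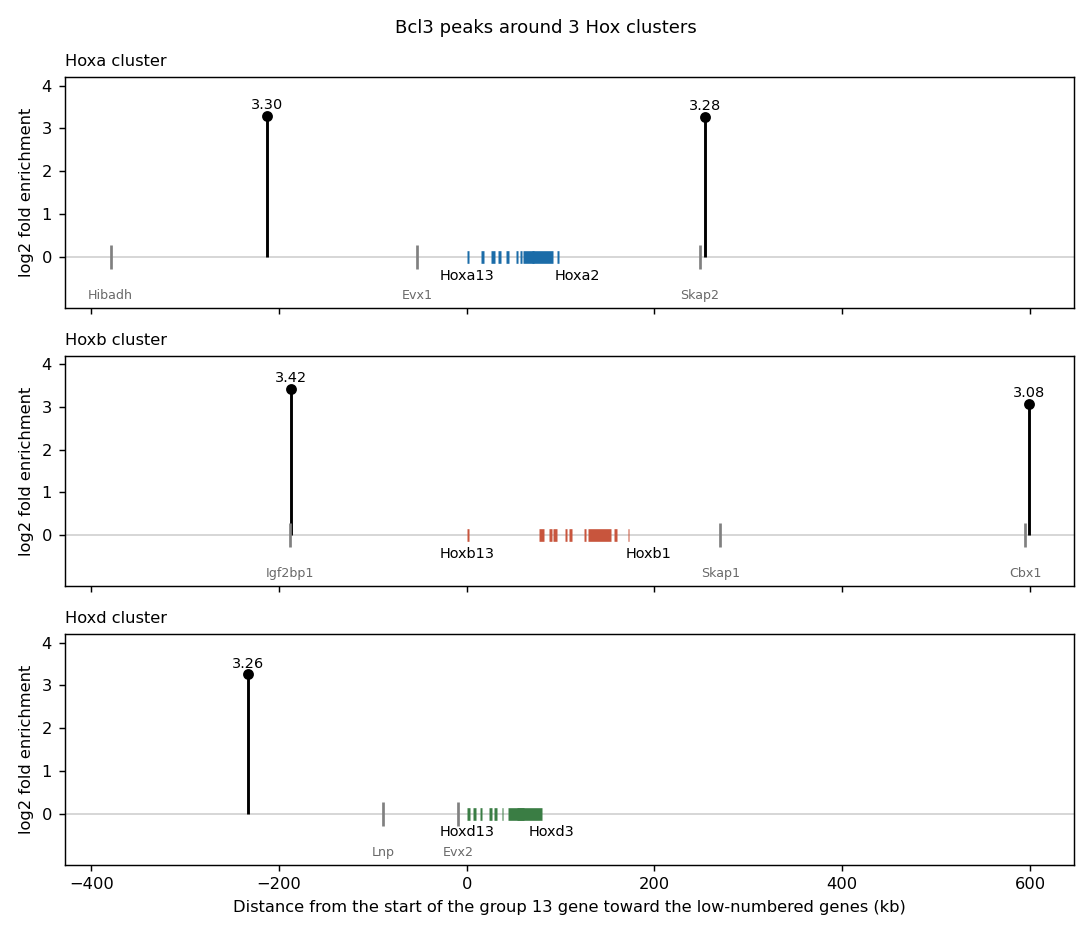
Peaks and genes around the Hoxa, Hoxb and Hoxd clusters. The horizontal axis gives the distance in kb from the start of the group 13 gene, running from the 5′ side to the 3′ side of the cluster. Coloured bars are Hox genes, grey ticks the starts of named neighbours, and black stems the Bcl3 peaks, with height giving the authors' log2 fold enrichment (3.08 to 3.42). The coloured bars carry no stem in any of the 3 clusters.

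Which genes the annotation lists for a peak depends on their rank and reach. It never gave more than 10 genes on 1 side of a peak, and the farthest gene edge lay 999.8 kb away. Taking the nearest 10 genes within 1 Mb gave exactly the listed genes for 1933 of 1995 peak sides (96.9%). On the inner side of the Hoxd peak the 10 genes were Lnp, Evx2 and 8 Hoxd genes, ending at Hoxd4. Hoxd1, the next protein-coding gene in RefSeq order, was not listed.

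In the Hoxa cluster, on chromosome 6, the 10 genes looked up were all listed, 8 of them for both flanking peaks. The peak on the 3′ side lay at 51956600 to 51956774 (mm9, as are all peak and gene positions below), in intron 1 of Skap2, a signalling adaptor gene, 5860 bp downstream of its transcription start site (TSS). The authors gave it a log2 fold enrichment of 3.28, which is 9.68-fold, a false discovery rate of 0.183 and a −log10 Poisson p of 6.29. The peak on the 5′ side lay at 52423850 to 52424074 between Evx1 and Hibadh, outside any gene. Its log2 fold enrichment was 3.30 (9.86-fold), its −log10 Poisson p 5.43 and its false discovery rate 0.179. Among the genes listed for it, the nearest TSS was that of the even-skipped homeobox gene Evx1, 160.5 kb away. The authors' deposited summary also places this peak within 100 kb upstream of a TSS, which belongs to none of the listed genes and was not analysed here. The 2 peaks were nearly equal in fold enrichment.

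Hoxa2, which patterns the neural crest of the second pharyngeal arch (52112509 to 52114829), was the Hoxa gene nearest to a peak, with its TSS 158.1 kb from the Skap2 peak. Hoxa4 (185.0 kb), which acts in the neck vertebrae, came next. Hoxa3, needed for thymus and parathyroid development, has its start farther into the cluster and was 194.3 kb away. For the lung patterning gene Hoxa5 the distance was 197.9 kb, for Hoxa6 it was 201.9 kb and for Hoxa7 it was 211.9 kb. Hoxa9, a driver of leukaemic self-renewal, lay 220.7 kb from the Skap2 peak and 246.6 kb from the peak beyond Evx1. The 2 flanking peaks changed places between Hoxa10 and Hoxa11, both needed in the uterus. Hoxa10 was 228.2 kb from the Skap2 peak and 239.0 kb from the Evx1 side peak. Hoxa11 was 239.1 kb and 228.2 kb from the same peaks. Hoxa13, required for digits and the hindgut (52208851 to 52210873), was 213.1 kb from the Evx1 side peak. Because the whole cluster is read from 1 strand, the 9 entries for the Evx1 side peak were upstream of the genes and the 9 for the Skap2 peak downstream.

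In the Hoxb cluster, on chromosome 11, the strongest peak of the 5 lay on the 5′ side at 95868450 to 95868899. Its log2 fold enrichment was 3.42 (10.7-fold), its length 450 bp, and its false discovery rate 0.179. Its −log10 Poisson p of 21.9 was the third highest of 1130. The closest transcript was that of Igf2bp1, an RNA-binding protein gene of embryonic tissues, with the peak upstream of the TSS, by 1417 bp in the closest-transcript sheet and 1449 bp in the wider annotation. Hoxb13, a prostate regulator that stands apart from the rest of the cluster (96055674 to 96057912), had its TSS 187.0 kb away, with 7 listed genes between. Hoxb9 (264.0 kb), which acts in the ribcage, and Hoxb8 (274.5 kb), a gene used in myeloid cells, were the only others listed for that peak.

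On the 3′ side of Hoxb the peak lay at 96654075 to 96654299, in intron 1 of Cbx1, which encodes the heterochromatin protein HP1β, 3738 bp downstream of its TSS. Of the 5 it had the lowest log2 fold enrichment, 3.08 (8.43-fold), and the highest false discovery rate, 0.251. Its −log10 Poisson p of 6.37 was below only that of the Igf2bp1 peak among the 5. The annotation listed it for Hoxb1 to Hoxb8, the 8 low-numbered genes. Hoxb1, a hindbrain gene of the fourth rhombomere (96227071 to 96228989), lay 427.1 kb from it and Hoxb2, used in facial motor neurons, lay 441.2 kb from it. The distances were 449.1 kb for Hoxb3, 474.1 kb for Hoxb4, a regulator of blood stem cells, and 489.4 kb for Hoxb5, which acts in neural crest of the gut. Hoxb6 (493.7 kb), a gene of lateral mesoderm, and Hoxb7 (506.2 kb), which helps shape the ribs, were farther still.

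For 7 of the 28 listed Hox genes the nearest listed peak was not the nearest peak on the chromosome. All 7 were Hoxb genes, Hoxb1 to Hoxb7, and each lay closer to the Igf2bp1 peak than to the Cbx1 peak it was listed for. For Hoxb7 the Igf2bp1 peak was 279.3 kb away, against 506.2 kb for the listed peak. For Hoxb4 the values were 311.4 kb and 474.1 kb, and for Hoxb1, at the far end, 358.4 kb and 427.1 kb. Over the annotation, 1.3% of 8974 listed genes had such a nearer peak that was not listed for them. By position, all 10 Hoxb genes were thus nearest to the Igf2bp1 peak. The 10 genes listed on that side of it ended at Hoxb8.

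**Figure D2:**
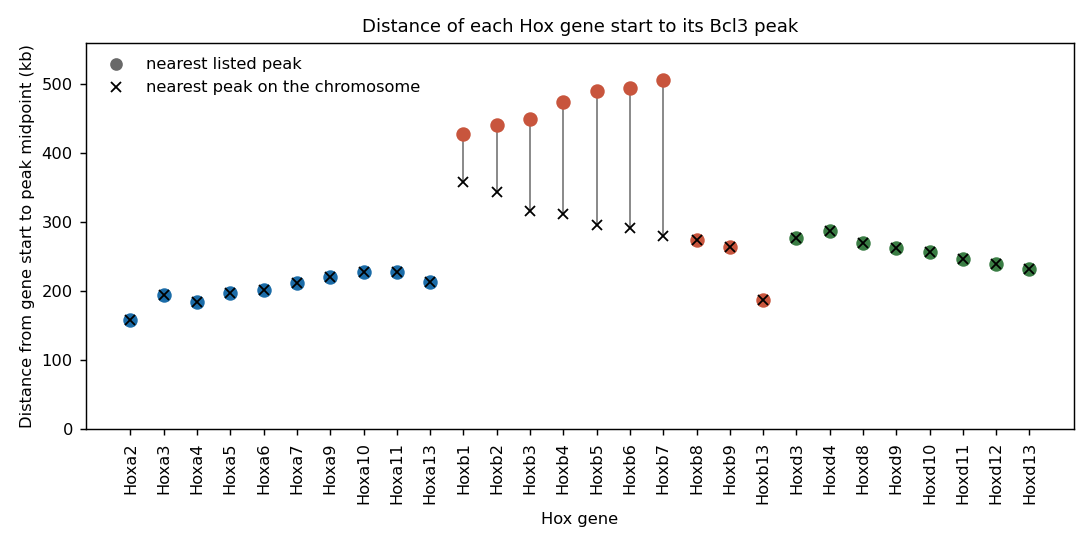
Distance in kb from the start of each of the 28 listed Hox genes to the midpoint of its nearest listed peak (coloured circles) and of the nearest peak on the chromosome (crosses). Circles and crosses coincide in Hoxa and Hoxd and separate for Hoxb1 to Hoxb7, where circles lie at 427.1 to 506.2 kb and crosses at 279.3 to 358.4 kb.

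In the Hoxd cluster, on chromosome 2, 8 of 9 genes were listed, all for 1 peak on the 5′ side at 74273375 to 74273624. It lay outside any gene, with 9.56-fold enrichment (log2 3.26), a false discovery rate of 0.183 and a −log10 Poisson p of 5.19. The region beyond Lnp on this side is known for limb enhancers of Hoxd genes. The nearest listed TSS, that of Lnp (Lnpk), an endoplasmic reticulum gene, was 143.5 kb away, and its nearest edge 79.4 kb. Evx2 lay 224.0 kb away. Hoxd13, the digit gene (74506366 to 74509654), was the nearest Hoxd gene, at 232.9 kb, followed by Hoxd12 (239.6 kb), another gene of the hand and foot, and Hoxd11 (247.0 kb), needed in the forearm and kidney. Hoxd10 (256.5 kb) and Hoxd9 (262.3 kb) act in the lumbosacral cord and limbs, and Hoxd8 (270.0 kb) in the trunk. Hoxd3 (276.6 kb) and Hoxd4 (286.5 kb), which shape the neck vertebrae, were the farthest listed. On the 3′ side the next peak, at the start of Zfp385b, lay 3088 kb beyond the end of Hoxd4, outside the reach of the annotation. Hoxd1 was listed for no peak.

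In the Hoxc cluster, on chromosome 15, 0 of 9 genes were listed for a peak. A count of 0 of 9 allows a share of up to 33.3% only for independent genes, which the genes of 1 cluster are not. The last peak of that chromosome in the list lay at 102235150 to 102235574, 1384 bp upstream of Sp1, a zinc finger transcription factor gene. Its log2 fold enrichment was 3.38 and its false discovery rate 0.179. Its 10 genes toward the cluster ran from Sp1 to Calcoco1, whose far edge was 317.1 kb away. In RefSeq order the next 9 protein-coding genes after Calcoco1 are the Hoxc genes, Hoxc13 first. That peak therefore also lay on the 5′ side of a Hox cluster, with Hoxc13 farther away than 317.1 kb, and the 10 listed genes ended just before it. The annotation gives no mm9 position for Hoxc genes, so their distances are not given.

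The group 13 genes of Hoxa, Hoxb and Hoxd lay at like distances from the nearest peak on the 5′ side. The distance was 187.0 kb for Hoxb13, 213.1 kb for Hoxa13 and 232.9 kb for Hoxd13, each upstream of the gene. No peak lay between any of them and its listed peak. Hoxc13 lay farther than 317.1 kb from the nearest peak on its 5′ side. Over all 8974 listed genes, the median distance to the nearest listed peak was 232.9 kb, so such distances are not particular to group 13 genes. Of the 5 peaks listed for Hox genes, the 3 on 5′ sides were intergenic in the authors' deposited summary, and the 2 on 3′ sides lay in introns. Of all 1130 peaks, 60.8% were intergenic, near the 3 of 5 seen here.

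Measured to the start of the gene, the median distance to the nearest listed peak was 251.7 kb over the 28 Hox genes and 232.9 kb over all 8974 listed genes. Up to 500 kb from the TSS, a peak was listed for 27 of 38 Hox genes, against 31.2% of protein-coding genes. Within 100 kb the count was 0 of 38, which allows a share of up to 7.89%, against 10.4% of protein-coding genes. That limit treats genes as independent, which genes of 1 cluster are not. No Hox gene was the closest gene of a peak, and 2.52% of protein-coding genes were, a share below what 0 of 38 allows. A site in or near the clusters that did not pass the authors' threshold was not detectable here, since the list leaves such sites out. Of the 28 genes, 9 were listed for 2 peaks, and 33.9% of all listed genes were listed for at least 2. Upstream entries made up 20 of the 37 gene and peak pairs (54.1%), against 48.8% of 13089 over the annotation.

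By fold enrichment, the 5 peaks stood in the upper part of the list. Their log2 values ran from 3.08 to 3.42 with a median of 3.28, and those of all 1130 peaks from 2.48 to 4.02 with a median of 2.93. All 5 were among the 568 peaks at or above the median fold enrichment (50.3% of peaks), and 2 of 5 had the lowest false discovery rate (21.1% of peaks). Of the 565 peaks with the greater Poisson score (50.0% of peaks), 3 belonged to the 5. Their median −log10 Poisson p was 6.29, against 5.80 over all peaks, and 4 of the 5 lay between 5.19 and 6.37. The Igf2bp1 peak was the exception, with the highest fold and the highest score of the 5. No peak in the list had a false discovery rate below 0.179, so none of the 5 is shown to be a true site.

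**Figure D3:**
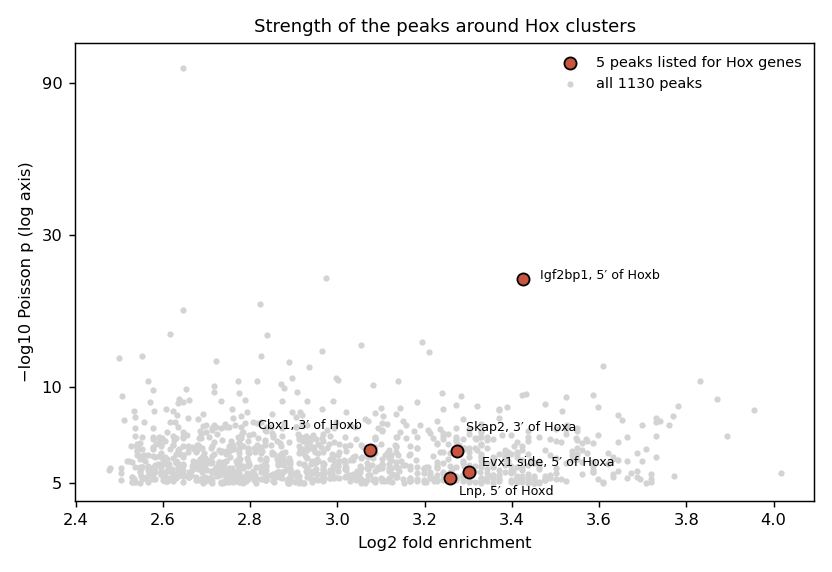
Log2 fold enrichment (horizontal) against −log10 Poisson p (vertical, log axis) for the 5 peaks listed for Hox genes (large red points) and all 1130 peaks (small grey points). The Igf2bp1 peak stands at 21.9 on the vertical axis, and the other 4 lie between 5.19 and 6.37.

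The peaks around Hoxa and Hoxb were also closer to each other than most neighbours in the list. The gap between the flanking peaks was 467.3 kb at Hoxa and 785.5 kb at Hoxb, against a median of 1385 kb over 1109 gaps between neighbouring peaks. Shorter gaps made up 22.5% of the 1109 for Hoxa and 33.2% for Hoxb. The gap that holds Hoxd was 3382 kb, and 77.1% of gaps were shorter. Hoxc lay beyond the last peak of its chromosome, so no gap holds it. Listing reaches only 1 Mb, which limits the gap of a cluster with listed peaks on both sides. The gaps over all peaks have no such limit, so the comparison for Hoxa and Hoxb is uneven.

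**Figure D4:**
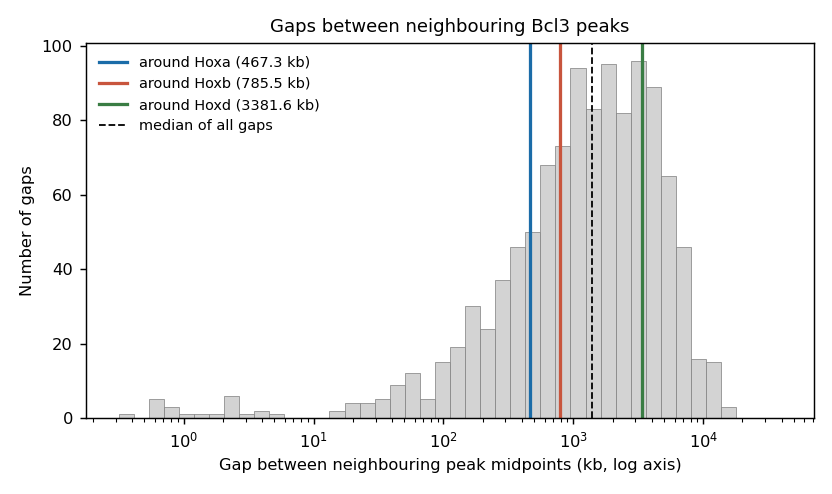
Histogram of the 1109 gaps in kb between the midpoints of neighbouring peaks on a chromosome (log axis). Solid lines mark the gaps that hold Hoxa (467.3 kb), Hoxb (785.5 kb) and Hoxd (3381.6 kb), and the dashed line the median of 1385 kb.

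Several genes around the clusters lay closer to the peaks than the Hox genes did. Of 44 genes on a list of cluster neighbours, 34 were listed for a peak (77.3%, against 40.4% of protein-coding genes). Of the same 44, 12 lay within 100 kb of a peak (27.3%, against 10.4%) and 4 were a closest gene (9.09%, against 2.52%). These neighbours share peaks, as the Hox genes do, and the list was chosen with earlier results of these data known. All of the 12 except Igf2bp3 lay at the Igf2bp1, Cbx1 or Skap2 peak, which are among the 5 peaks examined here. The higher shares follow in part from that choice, so no conclusion is drawn from them. Besides Igf2bp1, Cbx1 and Skap2, the nearest were Snx11, a sorting nexin gene (15.3 kb upstream of its TSS), and Nfe2l1 (35.1 kb), a stress response factor gene, both at the Cbx1 peak, and the gut hormone gene Gip (17.2 kb) and the endosomal sorting gene Snf8 (27.6 kb), both at the Igf2bp1 peak. Igf2bp3, a paralog of Igf2bp1 farther out on chromosome 6, is counted in the 12 and the 4 but was the closest gene of another peak, at 49082500 to 49082624, in its intron 5, where the log2 fold enrichment was 2.62 at a false discovery rate of 0.529. Nfe2l1 and Igf2bp3 were named after their values were seen. The list also held Kif18a, which is not next to a Hox cluster. The 9 noncoding RNAs of the clusters on a further list, such as Hotair and the miR-10 and miR-196 genes, were not in the annotation, so they were not analysed here.

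Among genes that act before the Hox genes, 2 had peaks at their starts. Of 19 such regulators, 11 were listed (57.9%, against 40.4% of protein-coding genes), 5 had one within 100 kb (26.3%, against 10.4%) and 2 were closest genes (10.5%, against 2.52%). No test was made of these shares or of those of the lists below. Both closest genes belong to the retinoic acid pathway. Aldh1a2, which makes retinoic acid in the early embryo, had a peak over its start on chromosome 9 at 71063475 to 71063799. That peak was centred 18 bp upstream of the listed TSS and was placed in exon 1 of the closest transcript. Its log2 fold enrichment was 3.50, at a false discovery rate of 0.179. Rarg, a retinoic acid receptor, had a peak on chromosome 15 at 102077150 to 102077499. Its log2 fold enrichment of 3.70 ranked 20 in the list, at the same rate. It lay 542 bp upstream of the start of the shorter transcript and in intron 3 of the longer one. The others were Fgf8, a growth factor of the tail bud (26.0 kb upstream, with the peak in intron 8 of Mgea5), Egr2 (66.4 kb downstream, 3.51), a hindbrain regulator of Hox genes, and Gdf11 (86.4 kb downstream, 2.63), a trunk-to-tail signal.

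Of the 9 homeodomain cofactors of the TALE class, which bind DNA together with Hox proteins, 3 were listed (33.3%, against 40.4% of protein-coding genes). None of the 9 had a peak within 100 kb, which allows a share of up to 33.3%, against 10.4%. The ParaHox genes are a family related to the Hox genes. Of 6, 1 was listed and lay within 100 kb of a peak (16.7%, against 40.4% listed and 10.4% within 100 kb). That was Gsx2, 30.5 kb from a peak whose closest transcript was that of Chic2, 487 bp away.

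Polycomb proteins keep Hox clusters silent. Of 28 Polycomb genes, 15 were listed (53.6%, against 40.4%), 9 had a peak within 100 kb (32.1%, against 10.4%) and 3 were closest genes (10.7%, against 2.52%). Pcgf3, a ring finger subunit, had a peak 812 bp downstream of its TSS in intron 1 (log2 fold enrichment 2.68, false discovery rate 0.464). Cbx7, the chromodomain subunit typical of embryonic stem cells, had one 4663 bp downstream in intron 2 (2.90, 0.324). Kdm2b, which brings a Polycomb complex to CpG islands, had one 30.4 kb downstream in intron 6 (2.74, 0.429). The PRC2 complex genes Aebp2 (8.6 kb) and Suz12 (88.2 kb) and the ring finger gene Pcgf5 (47.6 kb) had peaks outside the gene. The fold enrichments of these 3 intronic peaks were below those of all 5 Hox flanking peaks. That did not hold for every peak within 100 kb of a Polycomb gene. Another peak, 79.3 kb from the Kdm2b TSS, had a log2 fold enrichment of 3.36, above all of the 5 except the Igf2bp1 peak. One 90.1 kb from Phf1, named after its values were seen, had 3.17, above the Cbx1 peak only. The remaining peaks within 100 kb of these genes were below all 5.

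Of 9 Trithorax group genes, which keep Hox genes active, 6 were listed (66.7%, against 40.4%). The histone H3 lysine demethylase gene Kdm6b, 17.5 kb from a peak, was the 1 of 9 within 100 kb (11.1%, against 10.4%). Wdr5, a core subunit of histone methyltransferase complexes, was the closest gene of a peak in its intron 9 (2.58, 0.573), although the wider annotation gives that transcript another start, 370.7 kb away. Among 25 other homeobox genes, 19 were listed (76.0%, against 40.4%), a share like the 73.7% of the Hox genes. Of these 25, 8 had a peak within 100 kb (32.0%, against 10.4%) and 4 were closest genes (16.0%, against 2.52%). The peak of Six2, a kidney progenitor gene, was in exon 2, 2874 bp from the TSS (2.89, 0.336). Nkx2-5, a heart regulator, had one 1503 bp upstream (3.17, 0.213), and Irx2 one 11.1 kb downstream (3.25, 0.185). Peaks of the eye gene Pax6 (13.2 kb), the neural tube gene Nkx2-2 (3.1 kb) and the forebrain gene Otx2 (23.6 kb) completed the nearest 6. Some of these homeobox genes thus had peaks inside or right beside the gene, which no Hox gene looked up had.

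**Figure D5:**
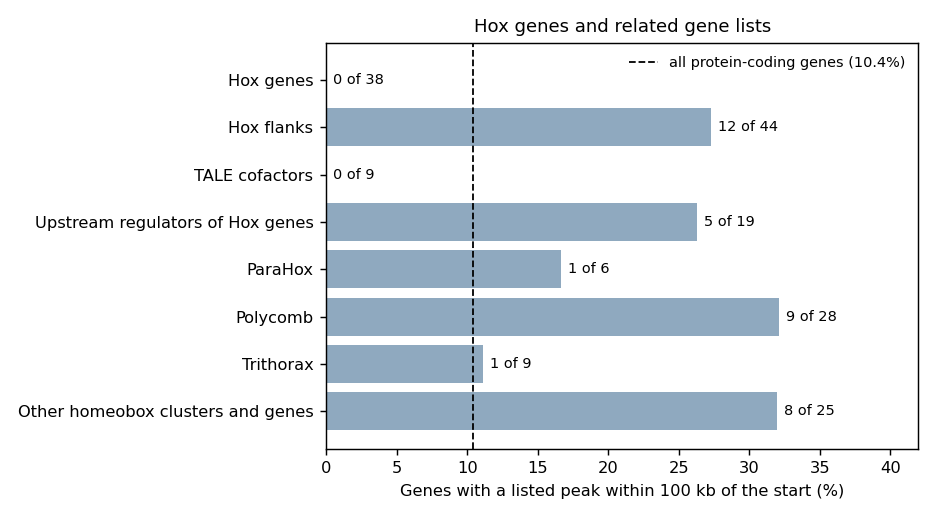
Percentage of each list whose TSS lay at most 100 kb from a listed peak (bars, with counts beside them), for the 38 Hox genes and 7 related lists. The dashed line is the share of all protein-coding genes, 10.4%. The Hox bar is at 0, below the line, and the Polycomb and other homeobox bars are the longest, at 32.1% and 32.0%.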

How the data were processed

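Anti-Bcl3 chromatin and input of CGR8 cells were sequenced, with 1 library each, and the authors' peak workbook of the ChIP library was used, with mm9 positions according to the submitters' processing notes. Aligner, peak caller and thresholds, and how the input was used, are not given in the sources used. Each deposited peak, per the file headers, has a log2 fold change (the greatest in the peak, with no denominator named), a −log10 Poisson p, a T score and a false discovery rate, used as a q-value. The T score was not analysed.

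Genes came from the deposited wider annotation and closest-transcript sheet. They were matched to a RefSeq gene table (GRCm38.p6) by gene identifier, accession or symbol, for 14543 of 14602 entries. Distances run from peak midpoint to TSS, and the shortest over transcripts was kept. Distances to unlisted peaks used mm9 positions in the annotation. Distance finding was tested on simulated data. Depth is unknown, and limits for 0 (3 counts of the total) cover counting error only. Python 3.11.15 and pandas 2.3.3 were used.

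With 1 library per group no test was made. Members and lists were chosen with earlier results of these data known. The naming rule took all members, their peaks, and up to 6 genes per related list within 100 kb of a peak or closest to one. Alternatives were stricter peak subsets, shorter distances, the closest-transcript sheet, merged peaks, summits and gene edges.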

Additional observations from a re-analysis of the deposited data

How the results depend on the processing

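No paired analysis was possible because each group has 1 library. With only the peaks at the lowest false discovery rate, 12 Hox genes, 2 peaks and 2 clusters remained listed, with 1 peak at Hoxa, 1 at Hoxb and 0 at Hoxd. With the 565 peaks of greater Poisson score, 19 genes and 3 peaks were listed, 1 at Hoxa, 2 at Hoxb and 0 at Hoxd. Within 100 kb, and by the closest-transcript sheet, the counts of genes, peaks and clusters were 0 each, as were those at Hoxa, Hoxb and Hoxd. With the 568 of greater fold enrichment, all 28 genes and 5 peaks were listed, and merging peaks within 1000 bp left 5. Within 500 kb, 27 genes were listed. At Hoxa the nearest peak lay 155.8 kb away when measured to the gene edge and 213.1 kb away at the lowest rate. The median over Hox genes was 259.7 kb at that rate, against 251.7 kb in all. Counting unlisted peaks, added after the data were seen, moved the Hoxb1 to Hoxb7 distances but left that median at 251.7 kb. Leaving out each of the 5 peaks in turn, also added then, left 20 to 27 genes. The median was then 228.2 kb without the Hoxd peak and without the Cbx1 peak, 256.5 kb without the Evx1 side peak, 269.4 kb without the Skap2 peak and 251.7 kb without the Igf2bp1 peak. No peak had a Hox gene as its nearest start, so that fold enrichment median was not computed. The fewer listed genes in stricter sets follow from fewer peaks.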
